A study of Mus musculus with 16 samples.

Results

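The comparison described here sets mouse cells that had passed through a pulse of ERK signalling, shut off again by a MEK inhibitor, against cells in which the pulse was never started. Its members are the 4 libraries of the group labelled rev and the 4 libraries of the group labelled 0h, 8 of the 16 RNA-seq libraries in the series, chosen by their labels alone. The cells are CRAFR26 cells in the pluripotent state that the labels name RSC, and they carry a c-RAF construct that 4-hydroxytamoxifen (4OHT) switches on. They are usually kept in N2B27 medium with IWP2, the MEK inhibitor PD03 and LIF. Before sampling, all groups spent 48 h with the FGF receptor inhibitor PD17 at 250 nM in place of the MEK inhibitor. Group 0h was taken at that point, without 4OHT. Group rev then received 250 nM 4OHT for 4 h, followed by 2 h with a MEK inhibitor, whose dose there is not stated. The groups 2h and 4h, taken after 2 h and 4 h of 4OHT, give the levels during the pulse. Each group held 2 libraries from clone 4 and 2 from clone 8, each a single clone, and the labels do not say whether libraries of 1 clone came from separate cultures, so p-values measure the spread between these libraries.

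In the RAF-MEK-ERK cascade, RAF phosphorylates MEK, MEK phosphorylates ERK, and ERK enters the nucleus and raises immediate-early transcription factors and feedback inhibitors such as the Sprouty and dual-specificity phosphatase proteins. In mouse pluripotent cells, FGF signalling through ERK is known for pushing cells out of the naive state, and inhibition of MEK helps to hold them in it. Most immediate-early transcripts are short-lived, so a block of MEK lowers them within hours, while stable transcripts can remain. Groups rev and 0h differ in 4OHT exposure, in the pulse itself, in 6 h of further culture and in MEK inhibitor, and these cannot be told apart. Groups rev and 2h were both sampled 2 h after a compound was added, and 0h and 4h were not.

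Library totals at 0h and rev ran from 4.88 to 9.99 M counts, of which 8 features with more than 1% of all counts, mostly ribosomal RNA, held 58.8% to 78.9%. The remaining counts numbered 1.3 to 4.04 M, and the lowest was the rev library 1 of clone 8. Levels below are CPM (counts scaled to a common library size) after TMM scaling, on which 3 counts are worth 0.291 to 0.908 CPM. Clone was the main axis of the data, since the leading principal component of the 500 most variable genes held 51% of the variance and separated clone 4 from clone 8. The second component held 20.9% and is not described here. The third component (8.57%) put the 0h and 4h libraries on its positive side and the 2h and rev libraries on its negative side.

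After the pulse and the inhibitor, 702 genes were higher and 630 lower than in never-induced cells, among 12742 tested (edgeR's quasi-likelihood test with clone as a covariate, Benjamini-Hochberg adjusted p under 0.05). That is 10.5% of tested genes, 5.51% higher and 4.94% lower. Most of these changes were small. The median log2 change was 0.58 among the higher genes, and 167 of them reached 1, and it was -0.62 among the lower genes, of which 108 reached a fall of 1. Over all tested genes, the 4 rev libraries lay above the 4 0h libraries for 789 genes (6.19%) and below them for 724 (5.68%), and 431 of the higher and 404 of the lower called genes were among these. Over all tested genes, 394 were called in each clone with the same sign, and 226 of the higher and 154 of the lower called genes were among these. The call over both clones itself favours such genes. The changes of both clones came from 1 model of all 16 libraries, with a mean for each group in each clone. Scaling by library totals moved the median of all genes by -0.24 and turned the split to 106 higher and 343 lower genes. Without the 0h library 1 of clone 4, 686 genes were called (370 higher, 316 lower), without the rev library 1 of clone 4, 724 (419 and 305), and without the rev library 2 of clone 4, 692 (394 and 298).

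**Figure D1:**
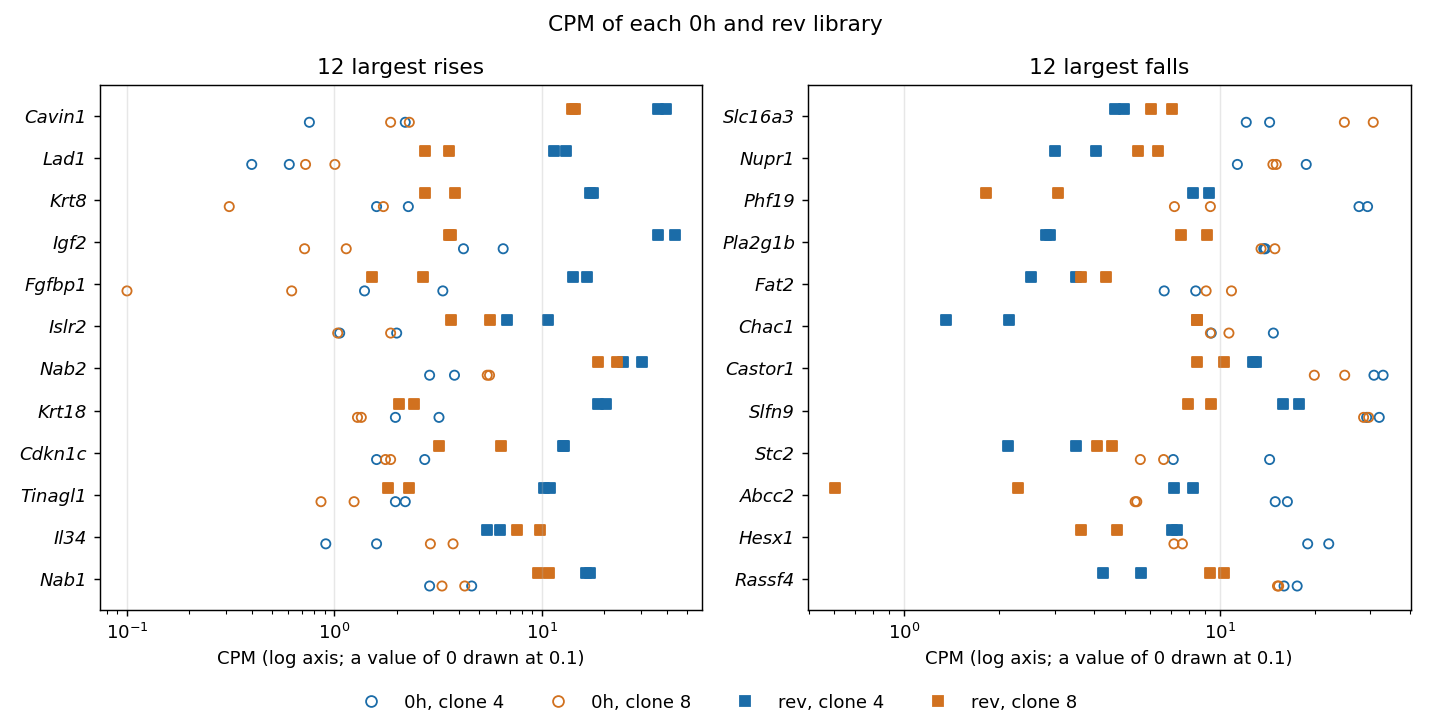
CPM on a log axis of the 12 largest rises (left) and the 12 largest falls (right) at rev against 0h that met the rule for named genes. Open circles are 0h libraries, filled squares rev libraries, blue clone 4 and orange clone 8; in clone 4 the rises stand further from 0h than in clone 8 for Cavin1, Lad1 and Krt18.

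The 2 largest rises among the named genes with at least 50 counts were Cavin1 and Lad1. Cavin1, the coat protein of caveolae, was at 2.2, 0.758, 1.87 and 2.3 CPM at 0h (clone 4 library 1, clone 4 library 2, clone 8 library 1, clone 8 library 2, an order kept throughout). At rev it was at 36.5, 39.7, 14.5 and 13.9 CPM. Every rev library lay above every 0h library, with the clone 4 libraries highest. The log2 change was 3.73 (SE 0.60, adjusted p = 0.00076). Lad1, which encodes ladinin, an anchoring-filament protein of epithelial basement membranes, went from 0.4, 0.606, 0.726 and 1.01 CPM to 11.4, 13.1, 2.73 and 3.58 CPM, again without overlap, a log2 change of 3.20 (SE 0.42, adjusted p = 0.000136). These 2 genes were also above 0h at 4h, where Cavin1 stood at 142, 99.3, 7.44 and 5.51 CPM and Lad1 at 13.3, 11.4, 1.71 and 1.53 CPM. In clone 4 Cavin1 was thus lower at rev than at 4h, and in clone 8 it was higher.

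Of the keratins of simple epithelium, Krt8 and Krt7 were high at rev and near their 0h level at 4h. Krt8 was at 1.6, 2.27, 0.311 and 1.72 CPM at 0h, at 4, 2.79, 0.804 and 0.766 CPM at 4h, and at 17.6, 17.2, 2.73 and 3.84 CPM at rev. Its log2 change at rev was 2.70 (SE 0.34, adjusted p = 8.71e-05), against 0.45 at 4h. Krt18, its filament partner, whose gene lies 23.7 kb away on chromosome 15, rose by a log2 of 2.22 (adjusted p = 0.00037), from 1.29 to 3.2 CPM at 0h to 18.6 and 20.5 CPM in clone 4 and 2.42 and 2.05 CPM in clone 8 at rev. At 4h Krt18 stood at 8.8 and 5.33 CPM in clone 4, between 0h and rev, and at 1.21 and 0.919 CPM in clone 8. The rev and 0h groups overlapped, as both clone 8 rev libraries lay within the 0h range. Krt7 rose by 2.06 (adjusted p = 0.00287) from 0.999, 1.36, 0.104 and 0 CPM to 4.63, 3.98, 0.908 and 0.768 CPM, and at 4h it was at 0.153 to 1.33 CPM. At 2h the clone 4 libraries had 12.7 and 17 CPM of Krt8, close to rev, and the clone 8 libraries 1.9 and 1.61 CPM. Of 16 simple epithelium genes tested, 6 were called higher and 0 lower (37.5% against 10.5% of all tested genes), with a list median of 0.21 against 0 over all genes. Krt19 and the junction protein gene Jup completed the 6. The adhesion genes Cdh1 and Epcam were not called, with log2 differences of -0.17 (adjusted p = 0.136) and -0.27 (adjusted p = 0.446). In clone 8 alone, 3 of the 16 were higher and 2 lower.

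**Figure D2:**
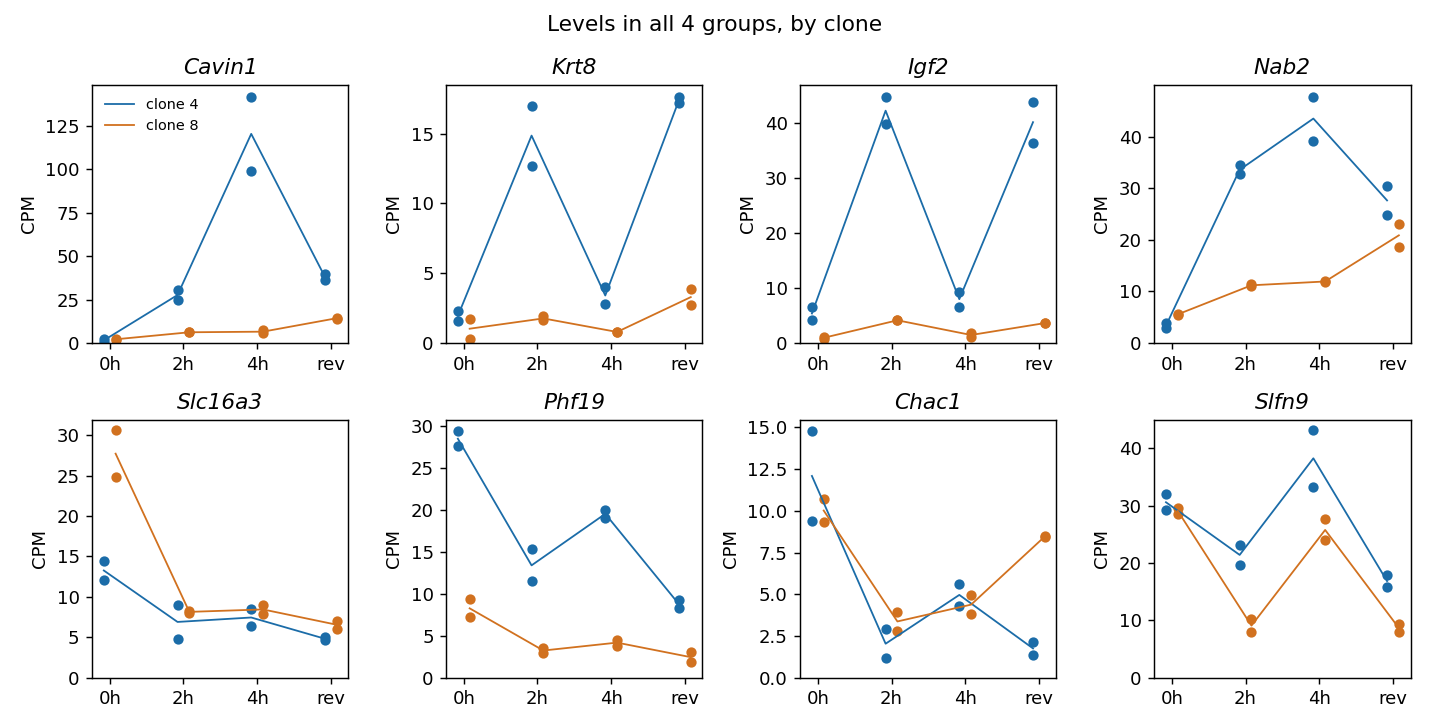
CPM of 8 genes in the groups 0h, 2h, 4h and rev, with 1 point per library and lines through the clone means (blue clone 4, orange clone 8). Cavin1 and Nab2 are above 0h at 2h, 4h and rev, Krt8 and Igf2 in clone 4 are high at 2h and rev and near 0h at 4h, and Slfn9 is below 0h at 2h and rev.

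The list of YAP and SRF targets, genes that respond to cell shape, adhesion and actin, had 7 of 16 tested members higher and 0 lower (43.8%), with a median of 0.49. Ccn1, a secreted matrix-associated protein, was at 4.99, 5.3, 2.9 and 1.72 CPM at 0h and at 11, 11.2, 11.5 and 9.6 CPM at rev, so that all rev libraries were higher and close to each other (log2 change 1.53, SE 0.32, adjusted p = 0.00539). Amotl2, an angiomotin that binds YAP, went from 54.9, 63.8, 36.5 and 33 CPM to 82.3, 84.7, 74.8 and 75.1 CPM (log2 change 0.80, SE 0.15, adjusted p = 0.002). Like Krt8 it was not raised at 4h, with 54.3, 52.6, 30.5 and 29.9 CPM. Rhob, a small GTPase of the actin system, was below most 0h libraries at 4h (2, 3.3, 8.95 and 7.35 CPM) and at rev above all of them, at 24.3, 24.5, 12.7 and 16.2 CPM against 9.79, 8.49, 11.7 and 10.2 CPM. Its call (log2 change 0.96, adjusted p = 0.0361) was lost without any of 5 libraries, both clone 4 libraries of either group and the 0h library 2 of clone 8 (highest adjusted p = 0.112). When the 0h library 1, the 0h library 2 or the rev library 2 of clone 4 was left out, 4 of the list were called higher, and with scaling by library totals 2 were, with a median of 0.21.

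Promoter letters are shown for one member of each of these groups, with the motif of a known regulator class in capitals. They are RefSeq sequences on GRCm38.p6, read 5′ to 3′ on the gene's strand, and cover the part of the 250 bases before the start that lies in no annotated exon. The TEAD core GGAATG, bound by the partners of YAP, begins 103 bases before the start of Ccn1 (chr3:145649986-145650235, minus strand), and the ETS core GGAAGT begins 205 bases before that of Krt8 (chr15:102004483-102004592, minus strand), both on the opposite strand.
Ccn1: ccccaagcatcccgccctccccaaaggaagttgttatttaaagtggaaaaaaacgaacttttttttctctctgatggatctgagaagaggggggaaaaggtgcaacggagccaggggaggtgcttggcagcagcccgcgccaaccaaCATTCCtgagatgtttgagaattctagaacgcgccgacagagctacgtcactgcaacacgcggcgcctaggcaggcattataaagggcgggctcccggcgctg
Krt8: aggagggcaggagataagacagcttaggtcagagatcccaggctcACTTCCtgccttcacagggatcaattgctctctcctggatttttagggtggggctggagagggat
Searched on both strands, the TEAD core was in 5 of the 10 largest rises with an entry (Cavin1, Igf2, Islr2, Tinagl1 and Nab1), and in 14.4% of 27025 gene symbols. The ETS core was in 2 of the 10 and in 22.2% of all, and the AP-1 core TGANTCA in 1 of the 10 and 7.82% of all. Such a match describes letters and is no evidence of binding.

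The imprinted genes called higher at rev were 4 growth regulators on chromosome 7. Igf2, the fetal growth factor, was at 4.2, 6.52, 1.14 and 0.719 CPM at 0h and at 43.9, 36.5, 3.63 and 3.58 CPM at rev, a log2 change of 2.66 (SE 0.22, adjusted p = 1.32e-06). The groups overlapped across clones, since clone 8 had less Igf2 at rev than clone 4 at 0h, but within each clone both rev libraries were higher. H19, the non-coding RNA gene 72.6 kb from Igf2, went from 40.1 and 38 to 96.2 and 89.7 CPM in clone 4 and from 0.934 and 0.862 to 4.84 and 5.37 CPM in clone 8 (log2 change 1.44, SE 0.17, adjusted p = 3.89e-05). The 0h level of H19 therefore differed far more between clones than between groups. Cdkn1c, which encodes the CDK inhibitor p57, went from 1.6, 2.73, 1.76 and 1.87 CPM to 12.7, 12.8, 6.36 and 3.2 CPM without overlap (log2 change 1.95, SE 0.29, adjusted p = 0.000415). At 4h these 3 genes stood near 0h, with log2 changes of 0.62 for Igf2, 0.26 for H19 and 0.28 for Cdkn1c. Phlda2, a limiter of placental growth 40.5 kb from Cdkn1c, rose from 1.58 to 2.73 CPM at 0h to 11.9 and 11.6 CPM in clone 4 and 2.42 and 2.69 CPM in clone 8 (log2 change 1.54, adjusted p = 0.00788), and had been raised at 4h too, at 19.2 and 14.7 CPM in clone 4. That call was lost without either clone 4 library of 0h (highest adjusted p = 0.0576). Of 13 imprinted genes tested, 4 were higher and 1 lower (38.5%), with a median of 0.05, and 8 were called in neither direction. Of exon length, 64.5% in Igf2 and 30.7% in Cdkn1c is shared with other annotated genes, in part on the opposite strand, and with the strand setting of the counts unknown their levels are uncertain.

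Corepressors of EGR factors and several secreted or surface proteins were also among the largest rises. Nab2 and Nab1 encode corepressors that bind EGR transcription factors and are themselves EGR targets. Nab2 was at 3.8, 2.88, 5.6 and 5.46 CPM at 0h, at 39.2, 47.8, 11.9 and 11.9 CPM at 4h and at 30.5, 24.7, 23 and 18.7 CPM at rev (log2 change 2.28, SE 0.34, adjusted p = 0.00048). All rev libraries lay above 0h, and in clone 8 rev lay above 4h. Nab1 was at 4.59, 2.88, 4.25 and 3.31 CPM at 0h and 17.1, 16.4, 10.9 and 9.6 CPM at rev (log2 change 1.70, SE 0.38, adjusted p = 0.00757), also without overlap. Of the exon length of Nab2, 42.2% is shared with other genes. Fgfbp1, a secreted carrier of FGFs, rose by a log2 of 2.63 (SE 0.28, adjusted p = 1.58e-05), from 1.4, 3.33, 0.623 and 0 CPM to 16.6, 14.2, 1.51 and 2.69 CPM, with clone 8 at rev below the highest clone 4 library of 0h. Il34, a ligand of the CSF1 receptor, had its higher levels in clone 8 and went from 1.6, 0.909, 2.9 and 3.74 CPM to 5.42, 6.3, 7.57 and 9.85 CPM (log2 change 1.82, SE 0.28, adjusted p = 0.000604). Islr2, a cell-surface protein with leucine-rich repeats, rose by 2.30 (adjusted p = 0.000587), and Tinagl1, a matricellular protein, by 1.82 (adjusted p = 0.00191).

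Feedback and immediate-early genes of ERK were called at a share near that of all genes. Of 22 tested, 3 were called higher at rev and 0 lower (13.6% against 10.5% of all tested genes), with a list median of 0.33. The median was 0.61 in clone 4 and 0.22 in clone 8. Spred1, not called over both clones, changed by 2.46 in clone 4 (adjusted p = 3.93e-08) and by -0.015 in clone 8 (adjusted p = 0.974). Spry4, a Sprouty inhibitor, averaged 2.02 CPM at 0h, 141 at 4h and 1.51 at rev, a log2 difference of -0.63 that was not called (adjusted p = 0.553). The ERK phosphatase gene Dusp6 averaged 2.92, 49.0 and 1.59 CPM, with a difference of -1.25 (adjusted p = 0.17). For these 2 genes the mean at rev was far below that at 4h. Dusp5, a nuclear ERK phosphatase, was among the 3, at 2.4, 2.42, 2.7 and 3.45 CPM at 0h, 33.2, 26.7, 5.73 and 7.04 CPM at 4h and 8.24, 11, 4.54 and 6.27 CPM at rev (log2 change 1.32, SE 0.36, adjusted p = 0.0235, and up to 0.101 without 1 library). Etv5, an ETS factor, kept a small rise, from 88.7, 87.2, 102 and 104 CPM to 142, 129, 114 and 109 CPM (log2 change 0.35, adjusted p = 0.0447, and up to 0.17 without 1 library). Egr3, an EGR factor, reached no more than 1 count in a 0h library and 1.69, 1.07, 0.303 and 0 CPM at rev. Its rev mean of 0.766 CPM was 1.71-fold above the mean 3-count floor at 0h (0.449 CPM). The clone 8 libraries, at 1 or 0 counts, were below that floor. Egr3, also among the 3, could pass the count filter only through groups where it had more counts. Without either clone 4 library of 0h the count of higher genes was 0, and without the rev library 1 or 2 of clone 4, or the rev library 2 of clone 8, it was 1. Of the kinase cascade itself, 2 of 12 genes were higher. Esr1, the oestrogen receptor gene from which the hormone-binding part of many tamoxifen-inducible constructs is taken, rose by 1.09 (adjusted p = 0.000242), from 10.6, 12.1, 4.25 and 3.31 CPM to 19.1, 23.5, 10.6 and 9.6 CPM.

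**Figure D3:**
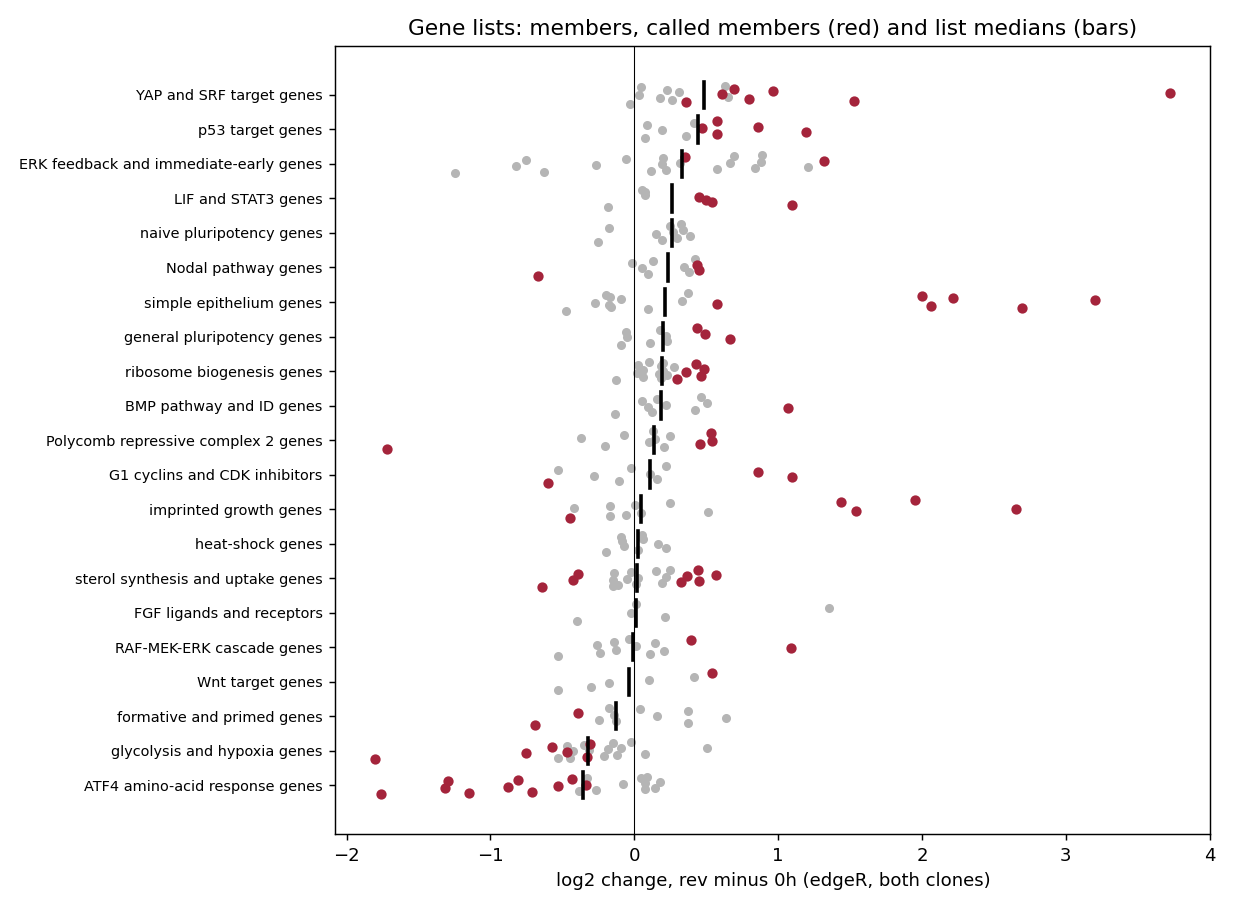
Log2 change at rev against 0h for each tested member of 21 gene lists, red where called and grey where not, with a black bar at the list median. Members with at most 3 counts in every 0h library (Egr3, Phlda1 and Ccnd2) are not drawn; the YAP and SRF and p53 lists have the highest medians and the ATF4 and glycolysis lists the lowest.

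Several of the largest falls belonged to the list of the ATF4 response. Of 20 genes of the ATF4 response, the programme by which cells short of amino acids raise their synthesis and import, 10 were called lower and 0 higher (50%), with a median of -0.36. In clone 4 alone 12 were called lower and in clone 8 alone 4, with medians of -0.56 and -0.16. Nupr1, a small stress-induced chromatin protein, fell from 18.8, 11.4, 14.7 and 15.1 CPM to 4.07, 3.01, 6.36 and 5.5 CPM, with no overlap (log2 change -1.76, SE 0.26, adjusted p = 0.000384). Trib3, a pseudokinase, fell from 31.4, 18.8, 16.3 and 15.1 CPM to 7.23, 6.3, 13 and 11.3 CPM (log2 change -1.15, SE 0.24, adjusted p = 0.00465), more in clone 4 than in clone 8. Chac1, which degrades glutathione, was at 14.8, 9.4, 10.7 and 9.34 CPM at 0h, at 2.15 and 1.36 CPM in clone 4 at rev and at 8.48 and 8.44 CPM in clone 8 at rev (log2 change -1.32, SE 0.37, adjusted p = 0.0269). The change was -2.77 in clone 4 and -0.25 in clone 8. At 2h, Chac1 had been low in both clones, at 1.17, 2.9, 2.81 and 3.93 CPM. The other members called lower were Stc2, Ddit3, Psat1, Psph, Mthfd2, Slc7a5 and Aldh18a1, of which Mthfd2, a mitochondrial folate enzyme, fell by 0.71 (adjusted p = 0.000604) and Aldh18a1, which begins proline synthesis, by 0.88 (adjusted p = 0.00162). Asns, the asparagine synthetase gene and a classic target, differed by 0.08 (adjusted p = 0.76). The count was 5 without the 0h library 1, the rev library 1 or the rev library 2 of clone 4, and the calls of Chac1 and Stc2 were lost without each of these (highest adjusted p = 0.108). Castor1, the arginine sensor that restrains mTORC1, is outside the list and changed by -1.31 in clone 4 and -1.29 in clone 8, from 30.8, 32.9, 19.9 and 24.9 CPM to 12.8, 13, 10.3 and 8.44 CPM (log2 change -1.30, SE 0.14, adjusted p = 1.58e-05).

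The composite core TGATGNAA, to which ATF4 binds with C/EBP factors, was found in the upstream windows of 3 of the 12 largest falls (Hesx1, Chac1 and Nupr1) and of 5 of 19 ATF4-list genes with an entry, against 3.91% of gene symbols. Those of Chac1 (chr2:119350992-119351228, plus strand) and Hesx1 (chr14:27000112-27000361, plus strand) lie outside annotated exons. They are shown, again from RefSeq on GRCm38.p6, with the core in capitals, which begins 193 and 166 bases before the start and reads on the opposite strand.
Chac1: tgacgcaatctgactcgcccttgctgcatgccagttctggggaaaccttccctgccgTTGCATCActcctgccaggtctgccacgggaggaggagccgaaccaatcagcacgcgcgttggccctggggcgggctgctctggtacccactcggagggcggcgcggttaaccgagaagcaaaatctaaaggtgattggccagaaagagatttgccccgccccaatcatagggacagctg
Hesx1: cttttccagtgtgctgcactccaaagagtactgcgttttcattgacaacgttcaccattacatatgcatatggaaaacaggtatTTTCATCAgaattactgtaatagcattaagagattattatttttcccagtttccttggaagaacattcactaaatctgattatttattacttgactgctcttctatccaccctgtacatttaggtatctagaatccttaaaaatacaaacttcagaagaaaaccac
Hesx1 itself, a homeobox repressor of early forebrain and pituitary development that pluripotent cells also express, fell from 19, 22.1, 7.16 and 7.62 CPM to 7.34, 7.08, 3.63 and 4.73 CPM (log2 change -1.21, SE 0.19, adjusted p = 0.000579). Within each clone both rev libraries were lower.

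In the glycolysis and hypoxia list 6 of 20 tested genes were lower and 0 higher (30%), with a median of -0.32. Slc16a3, the lactate exporter MCT4, had the largest fall of all named genes. It was at 14.4, 12.1, 24.8 and 30.6 CPM at 0h and at 4.97, 4.66, 6.05 and 7.04 CPM at rev (log2 change -1.80, SE 0.20, adjusted p = 2.63e-05). Clone 8 began at the higher level and both clones ended close together, with no overlap between groups. At 4h it was already low, at 8.53, 6.35, 7.84 and 9.04 CPM. Tpi1, triosephosphate isomerase, fell by 0.75 (adjusted p = 0.00395), and P4ha1, a hypoxia-induced collagen hydroxylase, by 0.57 (adjusted p = 0.00847), from 23.6, 24.7, 28.4 and 27.7 CPM to 19.1, 15.4, 15.4 and 19.2 CPM. The abundant enzyme genes Pkm and Eno1 fell by 0.33 and 0.31 (adjusted p = 0.017 and 0.0167). Without the 0h library 1 or the rev library 2 of clone 4 the count was 3, and in clone 8 alone it was 10.

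Among genes of the silencing complex PRC2, 1 was lower at rev and 3 were higher. Phf19, a Polycomb-like protein that guides PRC2 to CpG-rich sites, was at 29.4, 27.6, 9.34 and 7.18 CPM at 0h and at 9.26, 8.25, 1.82 and 3.07 CPM at rev (log2 change -1.72, SE 0.16, adjusted p = 4.24e-06). It changed by -1.70 in clone 4 and -1.64 in clone 8, and clone 4 at rev had about as much Phf19 as clone 8 at 0h. Jarid2, an accessory subunit, rose from 210, 214, 208 and 210 CPM to 338, 332, 259 and 245 CPM (log2 change 0.46, SE 0.09, adjusted p = 0.00261), and Epop and Rbbp7 rose by 0.53 (adjusted p = 0.00835) and 0.54 (adjusted p = 0.000257). The catalytic subunit gene Ezh2 differed by 0.13 (adjusted p = 0.32). In all, 3 of 12 were higher and 1 lower (33.3%), with a median of 0.14. With scaling by library totals none of the 3 rises was called and the median turned to -0.08, while the fall of Phf19 was called.

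The remaining large falls had different profiles during the pulse. Slfn9, Pla2g1b and Abcc2 were near or above 0h at 4h and low at rev and at 2h. Slfn9, of the Schlafen family, stood at 29.2, 32, 28.5 and 29.6 CPM at 0h, 43.2, 33.3, 23.9 and 27.6 CPM at 4h and 15.8, 17.9, 9.39 and 7.93 CPM at rev (log2 change -1.30, SE 0.19, adjusted p = 0.000351). Pla2g1b, a secreted phospholipase, was at 13.5 to 14.9 CPM in all 0h libraries and fell to 2.82 and 2.91 CPM in clone 4 and 9.08 and 7.55 CPM in clone 8 (log2 change -1.48, SE 0.27, adjusted p = 0.00171). Abcc2, an exporter of organic anions, fell by 1.29 (adjusted p = 0.00185). Fat2, an atypical cadherin, and Rassf4, a Ras-association protein, were low at 4h and at rev, and at rev fell by 1.32 (adjusted p = 0.00149) and 1.21 (adjusted p = 0.00255). For 6 of the 12 largest falls and 8 of the 12 largest rises, the 4h libraries overlapped 0h, a share not counted over all tested genes. Overlap over both clones did not mean a lack of change at 4h. Fgfbp1 overlapped with a log2 change of 3.06 at 4h (adjusted p = 6.37e-07), and Phf19 with 1 of -0.71 (adjusted p = 0.00325). The 2h, 4h and rev values all use the same 0h libraries.

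Of 10 p53 targets 5 were called higher, and of 11 tested genes of the G1 cyclin and CDK inhibitor list 2 were called higher and 1 lower. That list does not hold the CDK inhibitor gene Cdkn1c, described above among the imprinted genes, which was also called higher. Cdkn1a, which encodes p21 and is a p53 target, was at 33.6, 30, 26.2 and 30.3 CPM at 0h, below that in every library at 4h (14.9 to 22.5 CPM) and at 64.2, 61.6, 46.6 and 46.8 CPM at rev (log2 change 0.86, SE 0.17, adjusted p = 0.0032). All rev libraries lay above all 0h libraries. Ccng1, cyclin G1, rose from 114, 121, 126 and 121 CPM to 168, 198, 180 and 170 CPM (log2 change 0.58, SE 0.13, adjusted p = 0.00684), and Mdm2, the ligase that restrains p53, by 0.47 (adjusted p = 0.00163). Pmaip1, a pro-apoptotic BH3 protein, rose by 1.20 (adjusted p = 0.00353), mostly in clone 4 (4 and 1.67 to 13.4 and 15.5 CPM, against 16.1 and 19.4 to 21.8 and 33.1 CPM in clone 8). No p53 target was called lower, so that 50% of the list was called, with a median of 0.44. Scaling by library totals left 1 call and a median of 0.18. Among the G1 genes (27.3% called), Cdk6, a kinase of G1 progression, rose by 1.10 (adjusted p = 0.00427), from 1.2, 1.82, 2.9 and 3.02 CPM to 3.73, 4.85, 6.36 and 4.86 CPM. Cdkn1b, which encodes the inhibitor p27, fell by 0.60 (adjusted p = 0.0163), from 34.6 and 30.8 to 15.5 and 16.7 CPM in clone 4 and from 57.8 and 55.3 to 49 and 48.1 CPM in clone 8, and its call was lost without the 0h library 1, the 0h library 2 or the rev library 1 of clone 4 (highest adjusted p = 0.0624).

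LIF, which acts through JAK and STAT3, was a component of the usual medium, and 4 of 8 genes of that pathway were higher at rev, 0 lower (50%), with a median of 0.26. Socs3, its feedback inhibitor, went from 16.6, 12.9, 14.4 and 18.7 CPM to 28.6, 24.1, 40.3 and 41.6 CPM without overlap (log2 change 1.09, SE 0.15, adjusted p = 0.000205). Stat3, Bcl3 and Jak1 made smaller rises of 0.50, 0.54 and 0.45 (adjusted p = 0.0205, 0.0171 and 0.0449), and with library totals 1 gene of the list was called. The list had 2 calls without the 0h library 1 of clone 8, the rev library 1 of clone 4 or the rev library 2 of clone 8. Ribosome biogenesis genes had 5 of 18 members higher and 0 lower (27.8%), with a median of 0.20 that turned to -0.05 with library totals, where none was called. Nucleolin (Ncl), for example, rose from 966, 1057, 985 and 980.0 CPM to 1379, 1297, 1254 and 1193 CPM (log2 change 0.36, adjusted p = 0.00465).

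Among 10 naive genes, edgeR called 0 at rev, 4 had an unadjusted p under 0.05, all higher, and the median was 0.26. DESeq2 also called 0. Nanog averaged 440 CPM at 0h, 288 at 4h and 557 at rev (adjusted p = 0.2), and Klf4 84.8, 57.0 and 107 CPM (adjusted p = 0.402). Pou5f1 and Sox2 differed by -0.09 (adjusted p = 0.6) and -0.05 (adjusted p = 0.707). Of 10 general pluripotency genes 3 were higher (30%), among them Tdgf1, the Nodal co-receptor, by 0.43 (adjusted p = 0.00454), and the RNA-binding protein gene Lin28a by 0.66 (adjusted p = 0.0262). The count was 1 without the 0h library 1 or the rev library 2 of clone 4, and 0 with library totals. Of 11 formative and primed genes 2 were lower (18.2%). Otx2, a driver of the formative state, fell by 0.69 (adjusted p = 0.0332). This call was lost without any of 5 libraries, namely the 0h library 1 or 2 of clone 8, the rev library 1 or 2 of clone 4 and the rev library 2 of clone 8 (highest adjusted p = 0.0962). The list had 0 genes lower without each of these, and 1 without the 0h library 2 of clone 4.

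Other pathway lists were mixed in direction or had few calls. Of 20 sterol genes 5 were higher and 3 lower (40%), with a median of 0.02. Cyp51, a sterol demethylase, rose by 0.57 (adjusted p = 0.0167). Without the 0h library 1 or the rev library 2 of clone 4, 1 sterol gene was higher and 0 lower. Of 10 Nodal pathway genes 2 were higher and 1 lower (30%). Nodal itself rose by 0.45 (adjusted p = 0.0117; 0.0509 without the rev library 2 of clone 8), and Acvr1b, its type I receptor gene, fell by 0.67 (adjusted p = 0.0068), from 19.8, 12.1, 20 and 19.5 CPM to 9.04, 8.05, 15.1 and 13.7 CPM. BMP and Wnt lists had 1 higher gene each, Id2 and Znrf3, and each call was lost without at least 4 libraries. FGF ligands and receptors (5 tested) and heat-shock genes (9 tested) had 0 called genes, by edgeR and by DESeq2, with 1 gene each at an unadjusted p under 0.05 in edgeR.

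Markers of primitive endoderm and trophoblast included genes called higher at rev, and in bulk RNA more cells of a type and more RNA per cell cannot be told apart. Of 6 tested primitive endoderm markers 4 were higher (66.7% against 10.5% of all tested genes), Pdgfra, Dab2, Lama1 and Col4a1, while the defining factors Gata6, Sox17 and Foxa2 had at most 3 counts in any 0h or rev library and Gata4 differed by -0.40 (adjusted p = 0.352). Sparc, the remaining tested member, was not called. Sox7 was untested, with up to 20 counts at rev. The summed list ran from 225 to 310 CPM at 0h and from 218 to 378 CPM at rev. Col4a1, a basement membrane collagen, rose by 0.59 (adjusted p = 0.00187) and Pdgfra by 1.36 (adjusted p = 0.0126), from 0.287 to 1.06 CPM to 1.21 to 2.33 CPM. The count was 1 without the 0h library 1 and 2 without the rev library 2 of clone 4. The call of Lama1 was lost without any 1 of 7 of the 8 libraries (highest adjusted p = 0.155). Trophoblast markers had 3 of 6 higher (50%, namely Krt7, Hand1 and Eomes), with Cdx2 at no more than 2 and Elf5 at no more than 4 counts, and a sum of 52.3 to 77.3 CPM at 0h and 40.9 to 69.0 CPM at rev. The remaining tested trophoblast markers, Gata3, Tfap2a and Tfap2c, were called in neither direction, and 1 of them fell at an unadjusted p under 0.05. Without the 0h library 2 of clone 4, 1 trophoblast marker was called. Hand1 was also the mesoderm list's sole call, and that list summed to 2.87 to 4.09 CPM at 0h and 3.94 to 5.99 CPM at rev. Of 6 neural markers 1, Map2, was lower. Fibroblast markers were untested, with 0 counts of Col3a1 and Dcn. The part of such cells in the rises of keratins and matrix genes was not tested.

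The change at rev was also compared between the clones. A test of the clone 8 change minus the clone 4 change called 669 genes (5.25%), 395 of them with the lower change in clone 8. Of the 702 higher genes, 59 (8.4%) were among these, 51 with the smaller rise in clone 8. Of the 630 lower genes 27 (4.29%) were, 25 with the smaller fall in clone 8. Beside the 5.25% of all tested genes, the share was thus higher among the higher genes and lower among the lower genes. Opposite signs in the clones were seen for 9 higher genes and 1 lower gene, and for 5069 of all 12742 tested genes. A call over both clones itself favours genes with 1 sign, so this contrast is not read as a result. Some of the largest clone differences were in genes with no call over both clones. Lefty2 and Lefty1, secreted inhibitors of Nodal with near-identical copies whose reads can be shared, rose in clone 4 and fell in clone 8. Lefty2 went from 13.2 and 9.7 to 69.6 and 51.3 CPM in clone 4 and from 75.6 and 90.5 to 26.6 and 29.6 CPM in clone 8, a difference of -3.96 (adjusted p = 1.95e-11). Lefty1 differed by -2.80 (adjusted p = 2.02e-07). Efr3b, a membrane scaffold for a lipid kinase, rose from 3.2 and 2.88 to 15.5 and 15.7 CPM in clone 4, after 170 and 115 CPM at 4h, and was at 5.91 and 3.45 CPM at 0h and 4.24 and 3.97 CPM at rev in clone 8 (difference -2.62, adjusted p = 0.000259). In the other direction, Mlxipl, a glucose-responsive transcription factor, fell in clone 4 (10.2 and 7.43 to 2.37 and 2.42 CPM) and was higher in clone 8 at rev (11.2 and 9.91 to 27.9 and 15.2 CPM), a difference of 2.75 (adjusted p = 1.93e-05). Tgm1, a transglutaminase that cross-links proteins in stratified epithelium, changed by 1.88 in clone 8, from 6.23 and 7.47 to 26 and 24.3 CPM, and by -0.44 in clone 4, from 4.79 and 3.18 to 2.71 and 3.01 CPM (difference 2.32, adjusted p = 0.000292). Leaving out single libraries gave 304 to 616 such genes, with 304 without the 0h library 1 of clone 8, 308 without the rev library 2 and 396 without the 0h library 2 of clone 4, and 360 and 425 without the rev and 0h library 2 of clone 8.

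**Figure D4:**
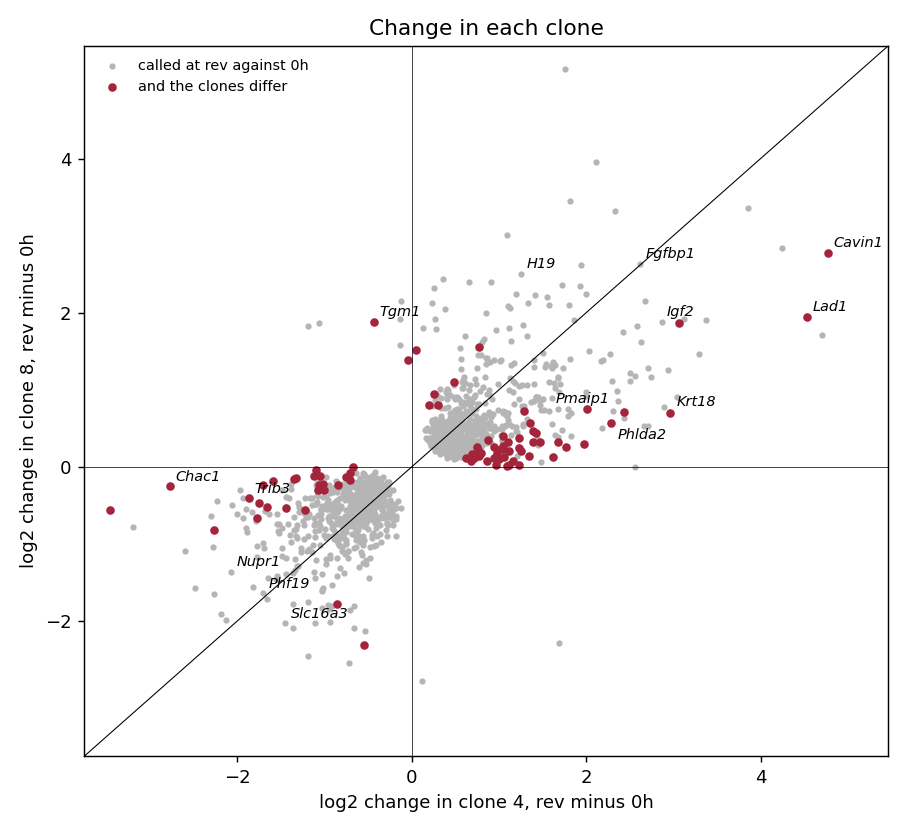
Log2 change at rev against 0h in clone 4 (horizontal) and clone 8 (vertical) for 1318 of the 1332 called genes, leaving out 14 with at most 3 counts in every library of a group; red genes also passed the test of a difference between clones. The diagonal marks equal change; Cavin1, Lad1, Krt18 and Phlda2 lie below it among the rises and Chac1 and Trib3 lie far to the left among the falls.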

How the data were processed

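RNA was measured in 16 libraries, of which the 8 of 0h and rev give the comparison. The authors deposited 1 table of whole-number read counts per Ensembl gene ID, without normalization. Per the submitters' processing notes, bcl2fastq 2.19.1, STAR 2.5.3a and the build mm10 were used, and ribosomal RNA was removed from total RNA, per the labels' protocols. The counting program, annotation and strand setting are not given in the sources used here. Names and coordinates are from GENCODE M21 (GRCm38), matched for 52489 of 52636 IDs, and promoter sequences from RefSeq (GRCm38.p6).

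The counts were tested with edgeR 4.0.16 in R 4.3.3: filterByExpr by group (minimum count 10, minimum total 15), TMM, the 4 groups plus clone over all 16 libraries, quasi-likelihood test, and Benjamini-Hochberg adjustment over 12742 genes, called at an adjusted p under 0.05. CPM values are TMM-scaled. The difference between clones was an interaction term in a model with 1 mean for each group in each clone. The procedure was tested on simulated counts. Depth at 0h and rev was 4.88 to 9.99 M counts per library; a floor of 3 counts covers counting error only. Libraries of 1 clone and group differed beyond counting error (their chi-square over its degrees of freedom was 1.32 to 4.49). All comparisons are between groups taken from the sample titles.

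Named genes were of 3 kinds. The 12 largest rises and 12 largest falls were called, averaged 50 or more counts in whichever group was higher, and had 1 sign in all 4 same-numbered pairs and no predicted-gene or small RNA name. From each list came up to 4 called members with the largest change, whatever their counts, and its defining members. The clone differences were the 3 largest in each direction with that count minimum, where both clone 8 changes lay outside the range of the clone 4 changes, called at rev or not. Members and lists were chosen with earlier results of these data known. Alternatives were other scalings, DESeq2 1.42.0, other filters and thresholds, other models, single clones, thinned counts and leaving out each library. Some named genes are not reported here.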

Additional observations from a re-analysis of the deposited data

Results flagged for a closer look

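For 24 of 82 named genes the change at rev against 0h differed between the clones by edgeR's interaction test (adjusted p under 0.05). Over all tested genes the share was 5.25%. Lefty2, Lefty1, Efr3b, Mlxipl, Tgm1 and Chac1 were named through this same test (Chac1 also for its fall), so their passing it was fixed in advance. The count is therefore not read as a result. Values are the clone 8 change minus the clone 4 change on the log2 scale. Among genes higher at rev, the rise was smaller in clone 8 for Cavin1 (-1.99), Lad1 (-2.58), Nab2 (-1.20), Krt18 (-2.26), Phlda2 (-1.71), Pmaip1 (-1.72), Rhob (-0.99), L1td1 (-0.95), Jak1 (-0.61), Hmgcs1 (-0.59) and Etv5 (-0.52), and larger for Tgm1 (2.32), Amotl2 (0.62) and Stat3 (0.61). Among genes lower at rev, the fall was smaller in clone 8 for Chac1 (2.52), Trib3 (1.46), Pla2g1b (1.44), Rassf4 (1.11) and Cdkn1b (0.79), and larger for Slfn9 (-0.92). The genes with no call over both clones were Lefty2 (-3.96), Lefty1 (-2.80), Efr3b (-2.62) and Mlxipl (2.75). Each clone has 2 libraries per group, and rev library 1 of clone 8 is the shallowest outside the abundant features.

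Dixon's test was applied to the 0h and to the rev libraries of each of 82 named genes, and chance gives about 1 hit in 20 such groups. In 4 genes a single 0h library stood apart from the other 3, no more than chance would give. Each group also mixes both clones, so these hits are not read as a result. Egr3 was at 0.104 CPM, a single count, in library 1 of clone 8 and at 0 in the others. Dab2 was lowest in library 2 of clone 4, at 0.152 CPM. Phlda3 was highest in library 2 of clone 8, at 22.1 CPM. Acvr1b was lowest in library 2 of clone 4, at 12.1 CPM.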

How the results depend on the processing

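Against 1332 called genes (702 higher, 630 lower), library totals gave 449 (106, 343), a fit without clone 273 (149, 124), clone 4 alone 2140 (1242, 898), an adjusted p under 0.01 450 (262, 188), an absolute log2 change of at least 1 275 (167, 108), counts thinned to 1 total 308 (191, 117) and the model with a mean for each group in each clone, added after seeing the data, 2721 (1436, 1285). Leaving out 1 library gave 686 to 1231 called (370 to 645 higher, 298 to 586 lower). DESeq2 called 1295, its size factors in edgeR 1342, no filter 1488, the 8 libraries alone 1537 and clone 8 alone 1270. For the 669 clone differences, library totals gave 152, thinning 124, an adjusted p under 0.01 292, a difference of at least 1 294, and leaving out 1 library 304 to 616. With the replicate block, 1027 genes were called (551 higher, 476 lower) and 620 clone differences; same-numbered libraries correlated at 0.0285 and 0.0304 once clone means were removed, so the numbers were not treated as pairs. Of 78 named genes called at rev, 46 were called without each of the 8 libraries in turn and 32 lost the call without at least 1. The sign turned for Tgm1 in clone 4 alone (-0.44) and for Eomes with thinned counts (-0.33), and the cause was not tested. Depth outside the abundant features, 1.3 to 4.04 M counts, limits genes with few counts.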

Other observations

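A few called genes had next to no reads in never-induced cells. Among the called genes, 13 had at most 3 counts in every 0h library and 1 had so few in every rev library. Such genes could pass the count filter only through groups where they had more counts. Their share among all tested genes was not counted, so these numbers are not read as a result. They were outside the rule for named genes, and the ones below were chosen after their values were seen. Foxf1, a forkhead factor of mesoderm, had 0 counts at 0h and 2.5 ± 1.07 CPM at rev (SD, n = 4), at least 5.56-fold above the mean 3-count floor of 0.449 CPM. Thbs1, the matrix protein thrombospondin, had at most 1 count at 0h and 2.44 ± 1.42 CPM at rev, at least 5.44-fold higher, and Fosl2, an AP-1 subunit, at most 3 counts and 2.44 ± 1.60 CPM, at least 5.43-fold higher. For these 3 genes all rev libraries lay above all 0h libraries, which the filter and their choice favoured and which is no support for a rise. Mean levels at 4h were 3.85 CPM for Foxf1, 1.33 for Thbs1 and 5.84 for Fosl2.

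Genes of the 2-cell-like state, a rare state of embryonic stem cell cultures, stood apart by clone. Zscan4d was at 2.28 and 1.72 CPM at 0h and 5.15 and 8.70 CPM at rev in clone 8, and at no more than 0.4 CPM in any 0h or rev library of clone 4. Of 4 tested members 1 was called over both clones (Zscan4d, adjusted p = 0.026), and the call was lost without the 0h library 1 or 2 or the rev library 2 of clone 8 (highest adjusted p = 0.301). Usp17lc had the same order, at 1.35 and 2.16 CPM and then 6.36 and 6.65 CPM in clone 8. Both belong to families of near-identical copies, so their counts are uncertain.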
